A study of Mus musculus with 3 samples.

Results

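Genes of ribosome biogenesis and RNA polymerase I were followed in NIH/3T3 cells, an established mouse fibroblast line, before, during and after exposure to 5aza-dC, the nucleoside decitabine, which replicating cells incorporate in place of deoxycytidine and which depletes active DNA methyltransferases. The set holds 40 genes, chosen by name as ribosome assembly factors and polymerase I subunits, out of 19057 named genes on the Illumina bead arrays. The brightest probe stood for each gene. A named probe was found for 39 of the 40, with Fbl the exception. In 33 of the 39 the brightest probe was detected (detection p-value below 0.01) in at least 1 group, while those of Rrs1, Dkc1, Bysl, Wdr12, Nop16 and Utp20 were not detected in any group. The list had been written after results of these arrays were known, so the counts and medians over its members describe these samples and are not independent evidence of a direction.

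The 3 groups were mock-treated cells, cells kept in 1 uM 5aza-dC that was renewed daily for 3 days, and recovery cells that had the same exposure followed by 14 drug-free days. All were the same line in serum-containing medium, and total RNA was measured. Each group has 1 deposited column, which is the mean of 2 arrays. The levels on the 2 arrays were computed back from the deposited tables. The design speaks of duplicate experiments, but the sources do not tie them to these arrays, so every error and p-value covers array-to-array spread, which may be technical. Between 31.1% and 33.4% of the 45281 probes were detected per group, and 8982 named genes were detected in at least 1. Of 10 fibroblast markers, 9 were detected in every group, with Postn the exception. Mock cells had a summed signal of 21110 for this list, 5aza-dC cells 14817 and recovery cells 18904. Of these 9, 5 fell and 0 rose in 5aza-dC, where 27.0% of all detected genes fell and 30.1% rose. Among the 5 were S100a4 (-1.37 ± 0.12) and the collagen gene Col1a1 (-0.64 ± 0.10). From 5aza-dC to recovery 6 rose, against 21.6% of all genes. Compared with mock, 3 were higher and 1 lower in recovery, against 22.0% and 18.4%. There S100a4 was at -0.74 ± 0.12, Col1a1 at 0.45 ± 0.10 and Pdgfrb at 0.86 ± 0.14. Pdgfrb did not pass in 5aza-dC (-0.06 ± 0.14). The defining epithelial, blood and endothelial markers Cdh1, Epcam, Ptprc and Cdh5 were not detected in any group. Pecam1, of the endothelial list, was detected on 0 mock arrays and on 1 of 2 arrays in both 5aza-dC and recovery. By limma it was higher than mock in both (adjusted p = 0.0102 and 0.00791). Its levels were close to background, so no fold is given. Other genes of these lists became detected. Laptm5, of the blood list, was not detected in mock or recovery, and its 5aza-dC level was at least 3.33-fold higher than mock (adjusted p = 6.14e-06). Emcn, of the endothelial list, was not detected in mock, and its levels were at least 1.11-fold higher under 5aza-dC and at least 1.38-fold higher after recovery (adjusted p = 2.93e-04 and 2.40e-04). The epithelial list went from 3 detected genes of 8 and a summed signal of 601 in mock to 5 genes and 2618 in 5aza-dC, and 3 genes and 699 in recovery. Krt14 and Krt8, keratins of that list, rose by 4.38 ± 0.11 and 4.05 ± 0.10 on the log2 scale in 5aza-dC. In recovery both were still higher than mock, by 1.46 ± 0.11 and 1.11 ± 0.10 (adjusted p = 2.87e-04 and 6.20e-04 by limma). Blood cell markers summed to 365 to 446 and endothelial markers to 495 to 518 over the groups. The part of these markers in the results below was not tested.

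Ribosomes are made in the nucleolus. RNA polymerase I transcribes a long precursor RNA from the ribosomal DNA repeats. Small nucleolar RNA-protein particles (snoRNPs) then guide its chemical modification, and a large set of assembly factors fold and cut it and load ribosomal proteins to form the small and large subunits. Growing fibroblasts spend much of their synthesis on this work, and the transcription factor Myc is a known activator of many of the genes involved.

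Levels below are normalized log2 intensities. A difference is the limma log2 difference ± SE, from n = 2 arrays in each group. A gene is said to rise or fall only where it passed limma over all 8982 genes with Benjamini-Hochberg adjustment at 0.05. Levels are relative within an array, so a change of total RNA per cell is not seen, and fewer cells of a kind cannot be told apart from less RNA per cell.

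In 5aza-dC, 30 of the 33 detected members fell and none rose by limma, and at an unadjusted p under 0.05 the counts were also 30 and 0. Of all detected genes 27.0% fell and 30.1% rose at the adjusted threshold. The share of all genes at an unadjusted p is not given here or below, so the unadjusted counts have no background to be read against. The median of the members was -0.67 in the deposited columns, against 0.01 for all detected genes. At least 2-fold lower levels were seen for 4 members, Ppan, Polr1b, Rrp12 and Rrp1b, where 2.79% of all genes were as low, and no member was 2-fold higher, where 6.60% of all genes were. The 2 arrays of 5aza-dC lay below both mock arrays for 31 members, a pattern shown by 38.7% of all genes, and above both for 0 members, against 40.2%. Npm1 (-0.21 ± 0.09), Nhp2 (-0.07 ± 0.09) and Tsr1 (0.15 ± 0.12) did not pass.

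After recovery 21 of the 33 were still lower than in mock and none was higher, where 18.4% of all genes fell and 22.0% rose. At an unadjusted p under 0.05 limma gave 22 lower and 0 higher. Both recovery arrays lay below both mock arrays for 25 members and above for 0, against 32.5% and 38.4% of all genes. The median was -0.36 against 0.03 for all detected genes. Of the members Ppan alone was at least 2-fold lower, as were 1.58% of all genes, and none was 2-fold higher, where 1.71% were. Set against 5aza-dC, 16 members rose in recovery and none fell, where 21.6% of all genes rose and 20.9% fell, and the median was 0.22 against 0.02. The unadjusted counts were 21 and 0. Recovery arrays lay above both 5aza-dC arrays for 25 members and below for 2, against 40.7% and 36.6% of all genes. No member changed 2-fold here, where 0.891% of all genes were higher and 4.39% lower by that much. The 3 comparisons share samples, so their values are given side by side and not as support for each other. The group means ran in the order mock, recovery, 5aza-dC for 28 members. What share of all genes showed that order is not given, so this count has no background to be read against. The same holds for the counts that follow, with an array left out. The count of 21 was 9 without recovery array 1 and 14 without recovery array 2. The count of 16 was 7 to 10 when an array of 5aza-dC or recovery was left out.

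**Figure D1:**
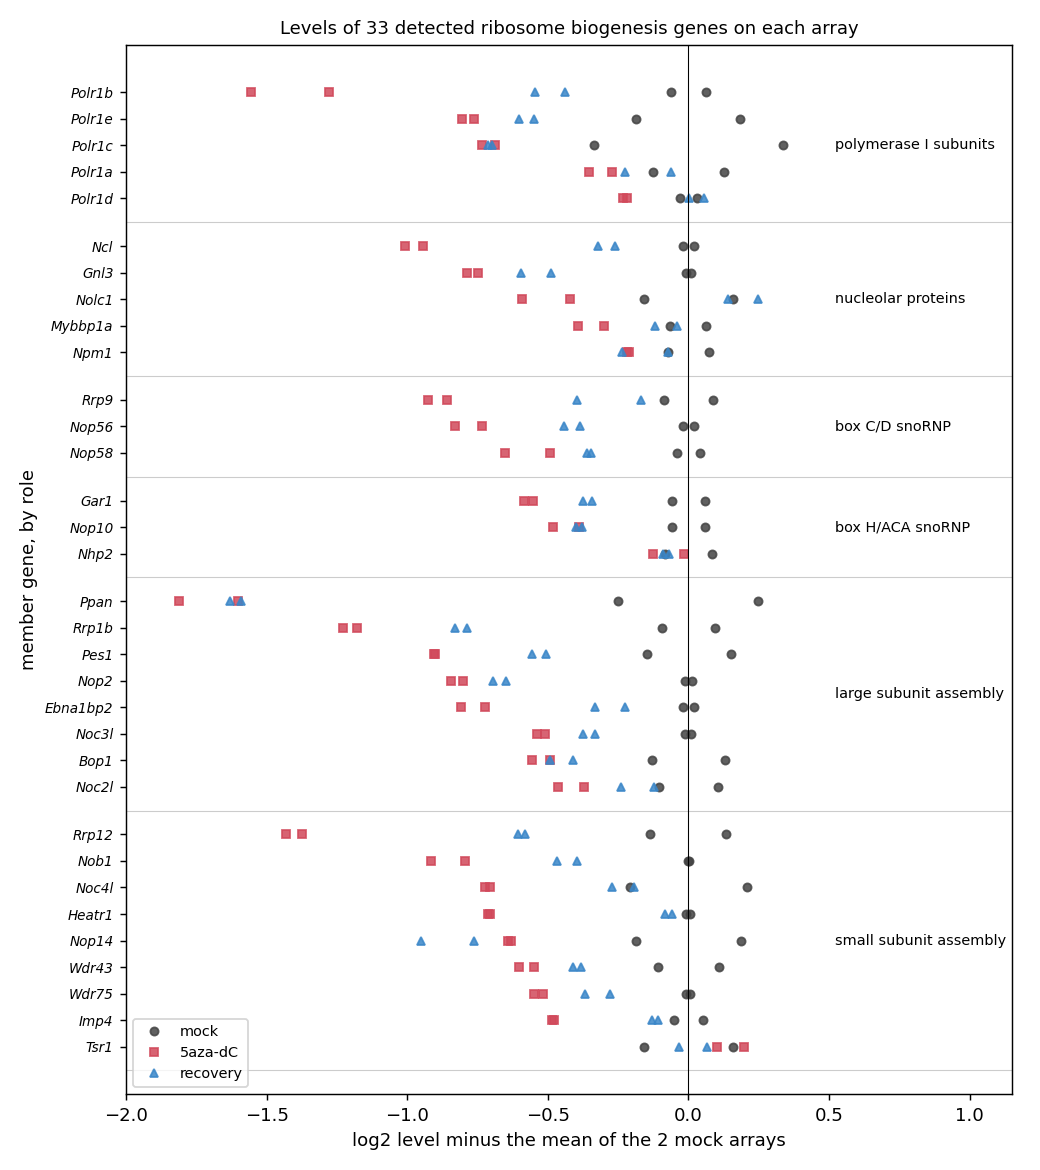
Log2 level of each of the 33 detected members on each array, minus the mean of the 2 mock arrays (x axis), with the genes grouped by role (y axis); circles are mock, squares 5aza-dC and triangles recovery, 2 points per group. The squares lie left of both circles for 31 members, and most triangles lie between.

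**Figure D2:**
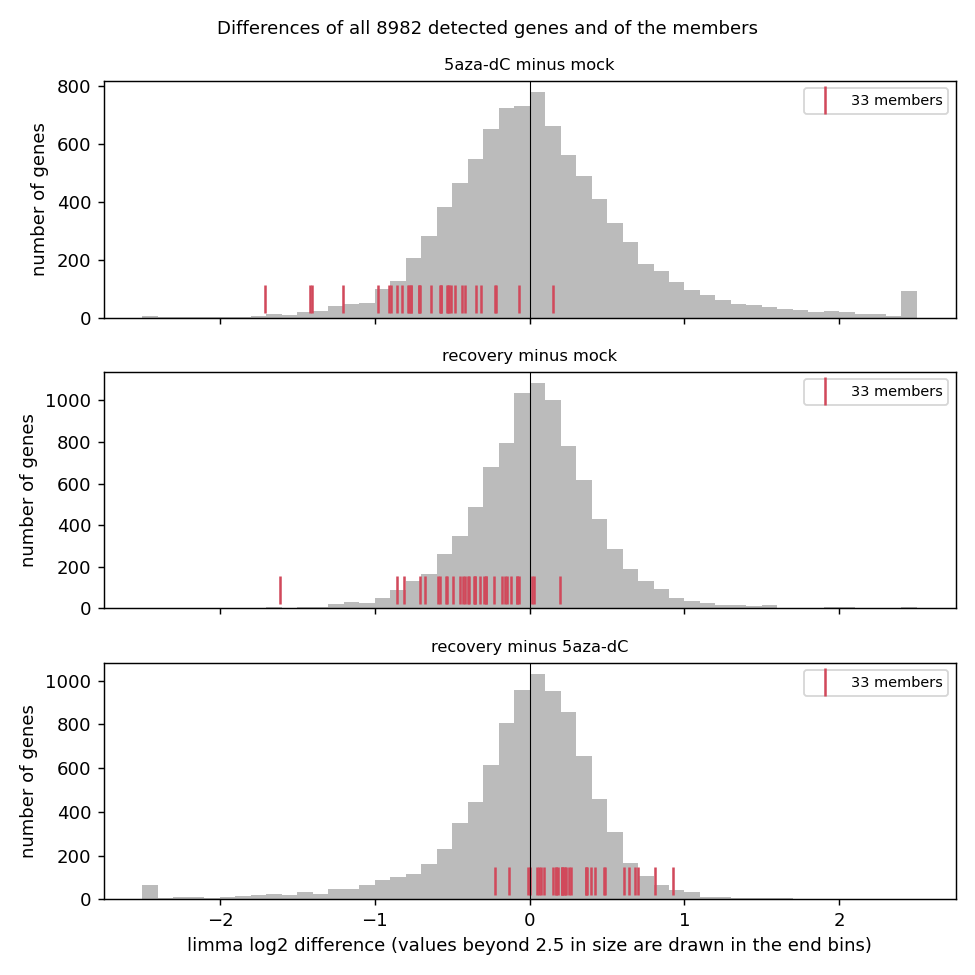
Number of genes (y axis) by limma log2 difference (x axis) for all 8982 detected genes in grey, with the 33 members as ticks, in 3 comparisons. The ticks lie mostly below 0 in both comparisons with mock and mostly above 0 for recovery minus 5aza-dC.

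Scaling bears on these counts. When arrays were scaled to the median of all probes, the median of all detected genes moved to -0.15 for 5aza-dC minus mock, -0.285 for recovery minus mock and -0.16 for recovery minus 5aza-dC. Relative to those shifts the members' medians were -0.69, -0.47 and 0.21. With that scaling the SE of every member was 0.347, against 0.0687 to 0.196 otherwise, and 11, 3 and 0 members passed limma, where 4.32%, 3.15% and 0.312% of all genes fell, fell and rose. At an unadjusted p under 0.05 limma gave 22 and 19 lower members and 1 higher member in these comparisons. Differences lay below 0 for 32, 33 and 9 of the 33 members. The median of all detected genes was itself below 0 in each comparison with this scaling. The share of all genes below 0 is not given, so these counts have no background either.

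All 5 measured subunits of RNA polymerase I fell in 5aza-dC, where 27.0% of all detected genes fell. With arrays scaled to the median of all probes, Polr1b alone among them passed. Polr1b, which forms the active centre together with Polr1a, read 8.87 and 8.75 on the mock arrays, 7.26 and 7.53 in 5aza-dC and 8.26 and 8.37 in recovery. Its 5aza-dC arrays were the lowest, recovery lay between, and no groups overlapped. The fall was -1.42 ± 0.11 (2.67-fold, adjusted p = 9.73e-05), and the rise from 5aza-dC to recovery was 0.92 ± 0.11 (adjusted p = 0.00106), the highest among the members. In recovery it remained -0.49 ± 0.11 from mock (adjusted p = 0.0144).

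Polr1e, a subunit of the dimer that helps the enzyme start and elongate, read 10.19 and 9.82 in mock, 9.25 and 9.20 in 5aza-dC and 9.40 and 9.46 in recovery. It fell by 0.79 ± 0.12 in 5aza-dC and was lower by -0.58 ± 0.12 in recovery, and its later difference of 0.21 ± 0.12 did not pass (adjusted p = 0.215). Polr1c, which polymerase III also uses, had the widest spread of any member in mock, at 6.68 and 7.35, against 6.28 and 6.32 in 5aza-dC and 6.31 and 6.30 in recovery. Both later groups lay below mock and overlapped each other, with differences from mock of -0.71 ± 0.20 each (adjusted p = 0.0192 and 0.0283). Polr1a, the largest subunit, fell by a small -0.31 ± 0.11 (adjusted p = 0.0456). Polr1d, shared with polymerase III like Polr1c, fell by -0.23 ± 0.07 in 5aza-dC (adjusted p = 0.0328 by limma) and differed from mock by 0.03 ± 0.07 in recovery. A further Polr1d probe did not pass in 5aza-dC (-0.20 ± 0.09, adjusted p = 0.103).

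Among the abundant nucleolar proteins, Ncl (nucleolin, which binds precursor RNA and ribosomal DNA chromatin) had the largest fall in 5aza-dC. Its levels were 10.47 and 10.52 in mock, 9.49 and 9.55 in 5aza-dC and 10.23 and 10.17 in recovery, with no overlap between groups. It fell by -0.98 ± 0.07 (1.97-fold, adjusted p = 8.05e-05) and rose again by 0.68 ± 0.07 in recovery, where it was still -0.29 ± 0.07 from mock (adjusted p = 0.02). Gnl3 (nucleostemin), a nucleolar GTPase of proliferating cells, fell by -0.77 ± 0.08 and was -0.54 ± 0.08 from mock in recovery. Nolc1, a chaperone of snoRNPs, fell by -0.51 ± 0.12 and rose by 0.70 ± 0.12 in recovery. Without mock array 1 it was called higher than mock in recovery (0.36 ± 0.11, adjusted p = 0.0464 by limma), where all arrays gave 0.19 ± 0.12. Its probe was close to background and was detected on 1 of the 2 arrays of 5aza-dC, and on both arrays of the other groups. Mybbp1a, a nucleolar protein that binds Myb, fell by -0.35 ± 0.08 and differed from mock by -0.08 ± 0.08 in recovery. Npm1 (nucleophosmin), a histone and ribosome chaperone, read 14.01 and 13.86 in mock, 13.72 and 13.72 in 5aza-dC and 13.86 and 13.70 in recovery, and passed in no comparison.

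The 3 measured proteins of box C/D snoRNPs fell in 5aza-dC, where 27.0% of all detected genes fell. Nop56 and Nop58 are core proteins of these particles, most of which guide ribose methylation. Nop56 read 12.10 and 12.06 in mock, 11.25 and 11.35 in 5aza-dC and 11.64 and 11.70 in recovery. Recovery lay between the other groups without overlap. The fall was -0.78 ± 0.08 (adjusted p = 2.34e-04), and the value of recovery against mock was -0.41 ± 0.08 (adjusted p = 0.00661). Nop58, its partner, fell by -0.57 ± 0.08. Rrp9, a protein of the snoRNP that directs early cleavage of the precursor, fell by -0.89 ± 0.11 and rose by 0.61 ± 0.11 in recovery, where its value against mock did not pass (-0.28 ± 0.11, adjusted p = 0.0725). The box H/ACA snoRNPs guide pseudouridine formation. Of their 3 detected proteins, Gar1 (-0.57 ± 0.08) and Nop10 (-0.44 ± 0.08) fell in 5aza-dC and were lower than mock in recovery too (-0.36 ± 0.08 and -0.39 ± 0.08). Neither passed between recovery and 5aza-dC. Nhp2 read 12.34 and 12.51 in mock, 12.30 and 12.41 in 5aza-dC and 12.33 and 12.35 in recovery, so that all its groups overlapped.

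All 8 detected factors of large subunit assembly fell in 5aza-dC, and 7 were below mock in recovery, where 27.0% and 18.4% of all detected genes were. Ppan, known from its yeast counterparts as a factor of large subunit maturation, had the largest fall of the set by the brightest probe. With the mean of detected probes it fell by -1.34 ± 0.14 in 5aza-dC, less than Polr1b (-1.42 ± 0.11) and Rrp12 (-1.40 ± 0.10). Its brightest probe read 9.28 and 9.77 in mock, 7.92 and 7.71 in 5aza-dC and 7.93 and 7.89 in recovery. Both later groups lay far below mock and overlapped each other. The falls were -1.71 ± 0.16 (3.26-fold, adjusted p = 2.24e-04) and -1.61 ± 0.16 (3.06-fold, adjusted p = 9.19e-04). Rrp1b, a nucleolar protein related to a yeast processing factor, read 11.17 and 10.99 in mock, 9.85 and 9.90 in 5aza-dC and 10.29 and 10.25 in recovery. It fell by -1.20 ± 0.09 (adjusted p = 7.11e-05) and stayed -0.81 ± 0.09 from mock, after a rise of 0.39 ± 0.09.

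Pes1 and Bop1 form a complex with Wdr12 that is needed to process the large subunit RNA. Pes1 fell by -0.90 ± 0.11 and rose by 0.37 ± 0.11 in recovery (adjusted p = 0.03). Bop1 fell by -0.52 ± 0.10, and its levels in 5aza-dC (8.40 and 8.47) and recovery (8.47 and 8.55) met. Nop2, a cytosine methyltransferase of large subunit RNA, fell by -0.82 ± 0.07 and remained -0.67 ± 0.07 from mock. Ebna1bp2 fell by -0.77 ± 0.08 and rose by 0.49 ± 0.08. Smaller falls were those of the paired factors Noc3l (-0.52 ± 0.07) and Noc2l (-0.42 ± 0.10), of which Noc2l did not pass in recovery (-0.18 ± 0.10).

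Of 9 detected factors of small subunit assembly, 8 fell in 5aza-dC and 5 were below mock in recovery, against 27.0% and 18.4% of all detected genes. Rrp12, which in yeast helps to export both subunits, read 10.43 and 10.70 in mock, 9.19 and 9.14 in 5aza-dC and 9.99 and 9.96 in recovery. No groups overlapped. It fell by -1.40 ± 0.10 (2.64-fold, adjusted p = 7.12e-05) and rose by 0.81 ± 0.10. Nob1, the nuclease that makes the last cut of the small subunit RNA, fell by -0.86 ± 0.08 and was -0.43 ± 0.08 from mock in recovery.

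Heatr1, whose yeast counterpart links polymerase I transcription to early processing, did not differ from mock past the threshold in recovery. By its brightest probe it read 11.53 and 11.54 in mock, 10.83 and 10.82 in 5aza-dC and 11.45 and 11.48 in recovery. The fall was -0.71 ± 0.07 (adjusted p = 2.36e-04), the rise 0.64 ± 0.07 (adjusted p = 6.38e-04), and the value of recovery against mock -0.07 ± 0.07 (adjusted p = 0.448). Wdr43 and Wdr75 belong to the same early module, and fell by -0.58 ± 0.09 and -0.53 ± 0.07 with -0.40 ± 0.09 and -0.32 ± 0.07 left in recovery. Imp4 (-0.48 ± 0.07) and Noc4l (-0.71 ± 0.13) fell and were within -0.12 ± 0.07 and -0.23 ± 0.13 of mock in recovery, which did not pass. Nop14, which pairs with Noc4l in yeast, was lowest in recovery, at 6.17 and 6.55 in mock, 5.73 and 5.72 in 5aza-dC and 5.41 and 5.597 in recovery. Its falls from mock were -0.64 ± 0.13 and -0.86 ± 0.13, and the difference between recovery and 5aza-dC did not pass (-0.22 ± 0.13, adjusted p = 0.222). Tsr1, whose yeast counterpart acts late in small subunit maturation, was detected in 5aza-dC alone, at 4.85 and 4.75, and its levels in mock (4.81 and 4.49) and recovery (4.72 and 4.62) were not above background.

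Further probes of the members, which the choice of the brightest probe did not use, gave another reading of the same arrays. There were 23 such detected probes for 16 genes. All 23 had a negative difference in 5aza-dC, as had the brightest probes of these genes, and 20 fell. Of all detected named probes 27.3% fell. In recovery 10 of the 23 were below mock and none above, and 11 rose from 5aza-dC to recovery, where 17.15% of all detected named probes were below mock and 20.21% rose. Sizes differed for some genes. A further Ncl probe gave -1.62 in 5aza-dC and -1.34 in recovery, against -0.98 and -0.29 by the brightest probe. A further Ppan probe gave -0.97, and one of Heatr1 gave -1.22, with -0.24 ± 0.08 left in recovery (adjusted p = 0.0518). For Nhp2, whose brightest probe did not pass, the further probe fell by -0.72 (adjusted p = 0.00282). That probe and the brightest one therefore disagree on whether Nhp2 fell. For Nob1, 1 further probe passed in no comparison, with -0.40 ± 0.17 in 5aza-dC (adjusted p = 0.0891) and -0.43 ± 0.17 in recovery against mock (adjusted p = 0.0941). Another Nob1 probe was lower than mock in both, by -0.98 ± 0.10 and -0.49 ± 0.10. The further Nop10 probe did not pass against mock in recovery (-0.21 ± 0.09, adjusted p = 0.124), where the brightest did.

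**Figure D3:**
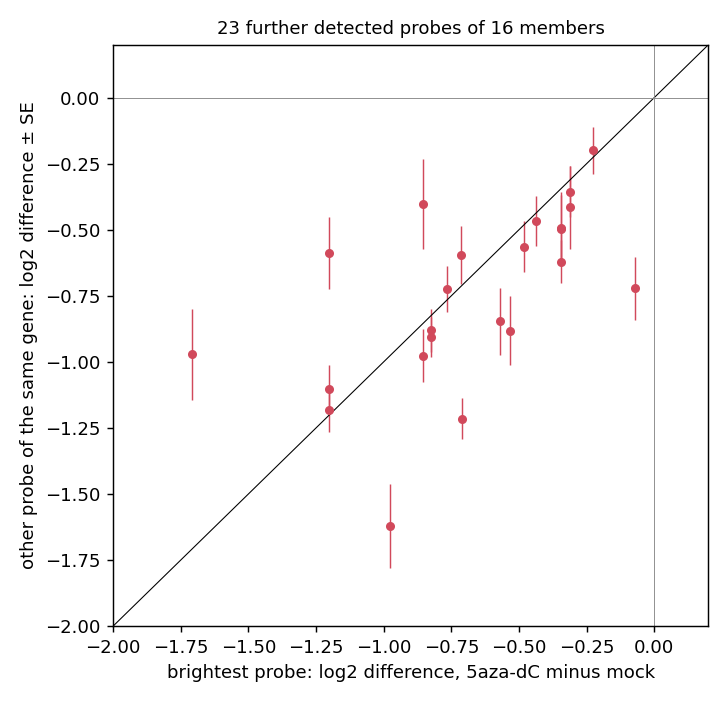
Limma log2 difference between 5aza-dC and mock by the brightest probe of a gene (x axis) and by a further detected probe of that gene with its SE (y axis), for 23 probes of 16 members; the diagonal marks equal values. All points lie below 0 on the y axis, with the Nhp2 probe at -0.72 far below the diagonal.

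Other genes of the same process, in lists written for this comparison, mostly moved in the same direction. These lists too were chosen with earlier results of these data known, so their counts are not independent evidence. Of all detected genes 27.0% fell in 5aza-dC, 30.1% rose there, and 18.4% were below mock in recovery. Of 35 detected further large subunit factors (39 listed), 32 fell in 5aza-dC and none rose, with a median of -0.68. The GTPase Gtpbp4 (-1.30 ± 0.10), Nle1 (-1.24 ± 0.08) and Rpf2 (-1.24 ± 0.08) fell most. In recovery 19 were below mock. Of 24 detected further proteins of the small subunit processome (34 listed), 21 fell and none rose, with a median of -0.61, and 15 were below mock in recovery. Pwp2 fell by -1.28 ± 0.09 and Wdr3 by -1.002 ± 0.14, while Dcaf13 was lower in recovery (-0.99 ± 0.12) than in 5aza-dC (-0.65 ± 0.12), a difference that did not pass (adjusted p = 0.0506). Wdr3 was detected on 1 of the 2 arrays in both later groups.

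The counts of the next lists are for 5aza-dC, where 27.0% of all detected genes fell and 30.1% rose. Of the 6 detected polymerase I transcription factors (10 listed), 5 fell. Taf1d and Taf1c, subunits of the promoter selectivity factor, fell by -1.08 ± 0.08 and -0.73 ± 0.10, and Rrn3, which makes the polymerase competent to start, fell by -0.64 ± 0.11 and stayed -0.59 ± 0.11 from mock. Of 11 detected polymerase III and shared subunits (16 listed), 7 fell, among them Polr3g (-1.21 ± 0.09), Polr3e (-1.20 ± 0.08) and Polr3a (-0.94 ± 0.07). Polr2f, named after its value was seen, rose by 0.31 ± 0.10. Of 10 detected genes of the RNA exosome (15 listed), which trims precursor RNA, 8 fell and none rose. Exosc6 fell by -1.18 ± 0.09, the cofactor Mphosph6 by -0.90 ± 0.08 and Exosc8 by -0.65 ± 0.18. Of 14 detected nucleolar helicases (17 listed) 9 fell, with Dhx33 at -1.05 ± 0.21, Ddx51 at -0.87 ± 0.07 and Ddx21 at -0.76 ± 0.08. Ddx24, named after its value was seen, rose by 0.36 ± 0.07.

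The cytosolic ribosomal proteins, which the assembly factors load onto the RNA, gave lower counts. Of 50 detected (79 listed) 13 fell and 1 rose in 5aza-dC, a share of 26.0% that is near the 27.0% of all genes, and the median was -0.10. In recovery 10 fell and 1 rose against mock, with a median of -0.09. That is a share of 20% that fell, near the 18.4% of all genes, and 2% that rose, against 22.0%. Among those that fell were Rps3a1 (-1.16 ± 0.23), Rpl29 (-0.46 ± 0.10) and Rpl6. Rpl6 fell by -0.37 ± 0.09 in 5aza-dC, where 1 of 2 arrays detected it, and was at least 1.11-fold lower in recovery, where neither array detected it. Rpl23, named after its value was seen, was the gene that rose against mock (0.35 ± 0.10 in 5aza-dC and 0.33 ± 0.10 in recovery). Ribosomal protein genes have many processed pseudogenes, and bead probes may not separate them. The difference between the ribosomal proteins and the assembly factors was not tested.

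**Figure D4:**
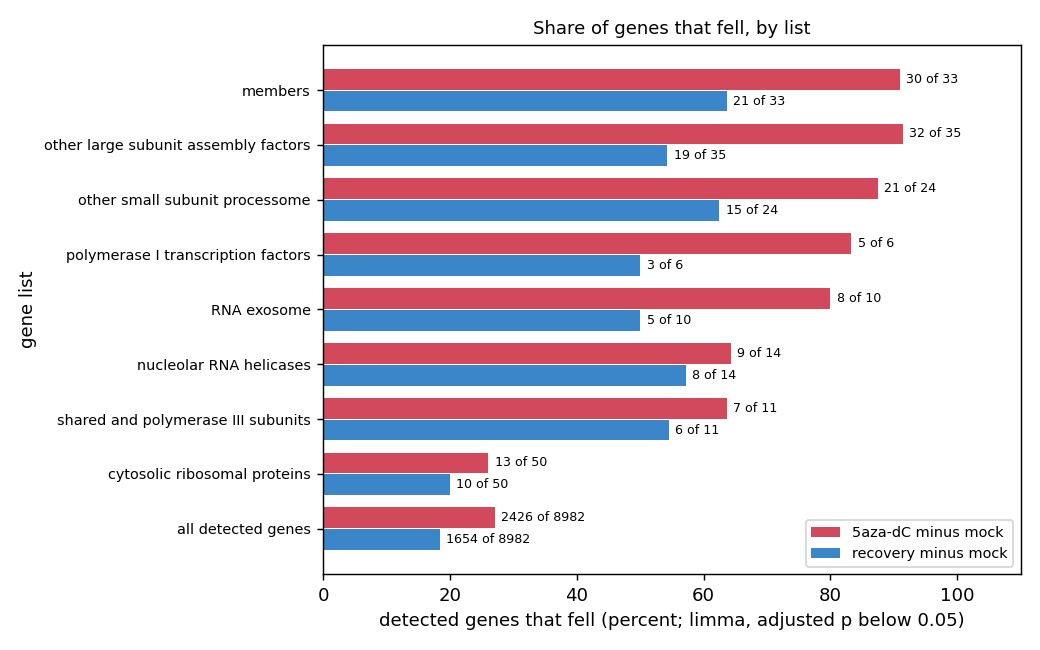
Percent of the detected genes of each list (y axis) that fell by limma with adjusted p below 0.05 (x axis), for 5aza-dC minus mock and recovery minus mock; the counts stand beside the bars. The members reach 30 of 33 in 5aza-dC, and the cytosolic ribosomal proteins 13 of 50, near the share of all detected genes.

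Among regulators, Myc read 9.16 and 8.95 in mock, 7.82 and 7.85 in 5aza-dC and 8.14 and 8.08 in recovery. Its groups did not overlap, and it fell by -1.22 ± 0.09 (adjusted p = 8.05e-05) and was -0.95 ± 0.09 from mock in recovery, while the difference between recovery and 5aza-dC did not pass (0.27 ± 0.09, adjusted p = 0.0504). Mxd4 and Mxd3, which bind the Myc partner Max and act as repressors, were higher. Against mock, Mxd4 rose by 1.54 ± 0.08 in 5aza-dC and 0.71 ± 0.08 in recovery, and Mxd3 by 0.89 ± 0.17 and 1.49 ± 0.17. Mycl, named after its value was seen, rose by 1.21 ± 0.07 in 5aza-dC and was lower than mock by -0.61 ± 0.07 in recovery. These 4 were among 5 detected genes of 11 listed in the Myc network. Of 5 detected genes (11 listed) tied to silencing of ribosomal DNA repeats, Ehmt2, a histone methyltransferase, was higher than mock by 0.50 ± 0.08 in both later groups. Sirt7, a deacetylase of the nucleolus, rose by 0.40 ± 0.07 in 5aza-dC. Kdm2a, a histone demethylase, was higher than mock by 0.32 ± 0.08 in recovery. Of 6 detected genes of p53 and nucleolar stress (9 listed), Cdkn1a, a cyclin-dependent kinase inhibitor, rose by 0.26 ± 0.08 in 5aza-dC. In recovery Cdkn1a was lower than mock by -0.89 ± 0.08, and Ccng1 was higher than mock by 0.60 ± 0.10.

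Promoters are given for 4 of the members. RefSeq sequences (GRCm38.p6) of 250 bases before to 50 after the start matched 35 of the 40 symbols. The E-box CACGTG, a motif that Myc and Max bind and that reads the same on both strands, was in 7 of the 35 (20.0%), against 12.2% of the 7308 detected genes with an entry and 8.09% of all 27025 genes with one. It was in 9 of 25 (36.0%) for the further small subunit processome and in 5 of 28 (17.9%) for the further large subunit factors, and in 6 of 57 (10.5%) for cytosolic ribosomal proteins. The members had a median of 19 CG dinucleotides in the window and detected genes 23. A match is a run of letters and not a site, and DNA methylation was not measured. Whether Myc or this motif has a part in the falls was not tested. The 250 bases upstream of the start are shown for Nop2 and Imp4, which hold the motif there (in capitals, beginning at positions -60 and -121), and for Polr1b and Ppan, which had the largest falls by the brightest probe and no such run.
Nop2, chr6:125131633-125131882, plus strand: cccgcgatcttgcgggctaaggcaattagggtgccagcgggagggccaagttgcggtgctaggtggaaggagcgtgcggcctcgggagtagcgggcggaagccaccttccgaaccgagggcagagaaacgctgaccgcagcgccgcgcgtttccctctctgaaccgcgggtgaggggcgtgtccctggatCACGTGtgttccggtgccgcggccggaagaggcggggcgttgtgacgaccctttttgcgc
Imp4, chr1:34439579-34439828, plus strand: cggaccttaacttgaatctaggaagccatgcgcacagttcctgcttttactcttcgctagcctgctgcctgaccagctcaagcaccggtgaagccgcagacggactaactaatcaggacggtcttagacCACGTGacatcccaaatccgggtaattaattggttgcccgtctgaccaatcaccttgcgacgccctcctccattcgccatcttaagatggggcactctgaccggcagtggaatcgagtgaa
Polr1b, chr2:129100746-129100995, plus strand: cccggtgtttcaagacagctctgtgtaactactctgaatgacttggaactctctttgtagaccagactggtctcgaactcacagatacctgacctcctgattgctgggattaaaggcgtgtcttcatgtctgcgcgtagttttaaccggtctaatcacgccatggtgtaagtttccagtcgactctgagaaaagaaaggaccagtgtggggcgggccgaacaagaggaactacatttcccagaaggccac
Ppan, chr9:20887925-20888174, plus strand: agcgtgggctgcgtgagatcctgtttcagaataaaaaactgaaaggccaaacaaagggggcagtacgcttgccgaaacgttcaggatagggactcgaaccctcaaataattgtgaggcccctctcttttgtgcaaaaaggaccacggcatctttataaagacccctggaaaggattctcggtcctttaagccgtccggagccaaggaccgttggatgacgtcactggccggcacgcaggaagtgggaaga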

How the data were processed

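Per the labels' protocols, total RNA was extracted with TRIZOL and labelled with biotin through a TotalPrep kit. One deposited table gives raw probe intensity and a detection p-value, per the file headers, for 45281 probes. The other deposited table gives intensity that the authors background-subtracted and scaled, as its values show: 38.5% to 40.2% lie below 0, and the mean is 224.5 in each column. The sources used here name no software.

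The detection p-values lie on steps that fit 2 arrays of 936 negative controls. Solving the tables together over p-values of 0.05 to 0.97 gave the intensity on each array. For mock, 5aza-dC and recovery the p-value misfit (SD) was 4.10e-04, 1.35e-04 and 3.64e-05, against 0.0379, 0.0286 and 0.0293 with 1 array. In recovery 1 probe was left out of this step. The negative controls, which should average 0 after background subtraction, averaged -0.18 to 0.11. Arrays of a pair correlated with r = 0.9952 to 0.9978. Which array carries which number is arbitrary.

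Values were normalized with neqc (offset 16) in limma 3.58.1 (R 4.3.3), and 8982 genes detected at p below 0.01 were fitted with lmFit and eBayes (3 residual and 3.7 prior degrees of freedom) with Benjamini-Hochberg adjustment within each comparison. The number of arrays limits the precision. A bound sets the bright group against, per array, the higher of the lowest detected level and the probe's own. On simulated data for 5aza-dC minus mock over 8982 genes, 73 of 100 changes of 0.5 and 99 of 100 changes of 1 on the log2 scale were recovered, with 5 false calls. No other gene was changed there, while 2705 rose and 2426 fell in the data, so recovery and false calls may not carry over. Solving a simulated column of 45281 probes modelled on mock gave a scale ratio of 1.3378 against a true 1.3377. That column was built by the model that the solving assumes, at this ratio alone. The scales found in the data were 1.18 and 0.68 for mock, 1.14 and 0.94 for 5aza-dC and 1.25 and 1.06 for recovery. Accuracy at those scales was not checked. Of the probes, 34885 had 1 gene name by the platform annotation.

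The members, lists and tests were chosen with earlier results of these data known. All 40 members are accounted for. Of each other list, up to 3 genes with the largest change among those past limma against mock are named by rule. Genes said in the text to be named after their value was seen stand outside it. Cell marker lists are given as counts and sums, with values for some of the genes the rule names. Alternatives covered offset, background correction, scaling, input table, detection filter, probe choice and leaving out each array. There were 0 columns of other samples.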

Additional observations from a re-analysis of the deposited data

How the results depend on the processing

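The sign of the members' median, over differences of the deposited columns, held under every alternative run. For 5aza-dC minus mock (-0.67) it was -0.57 both with offset 50 and with uncorrected background, -0.833 with arrays scaled to the all-probe median, -0.72 from the series matrix and -0.56 over 39 genes without a detection filter. For recovery minus mock (-0.36) it was -0.75 with the median scaling, -0.30 without a detection filter and -0.38 with the mean of detected probes. For recovery minus 5aza-dC (0.22) it was 0.0578 with the median scaling and 0.24 from the series matrix. With the median scaling 11, 3 and 0 members passed limma, against 30, 21 and 16, and at an unadjusted p under 0.05 the count for the last was 1. The SE was 0.347 for every member there, so limma used 1 shared spread for them. In the main fit it was 0.0687 to 0.196, with a spread for each gene. The counts thus differ in the estimate of the spread as well as in the scaling. Why the spread became shared was not tested. Leaving out 1 array gave 25 to 30, 9 to 21 and 7 to 20 members past limma. Without mock array 1 the counts of 30 and 21 each held 1 member called higher, Tsr1 in 5aza-dC and Nolc1 in recovery. That of Tsr1 is set against a mock level not above background and gives no fold. Medians of the limma differences were -0.658 to -0.614, -0.374 to -0.334 and 0.222 to 0.247, against -0.636, -0.353 and 0.227 with all arrays, where a lone array is assumed to vary like the others. Signs turned only for values that had not passed. With the median scaling these were Polr1d (-0.315), Nolc1 (-0.0162) and Tsr1 (-0.0307) for recovery minus mock, and Polr1c (-0.199), Nop2 (-0.0338), Nop10 (-0.107), Ppan (-0.0675), Bop1 (-0.119) and Noc3l (-0.0156) for recovery minus 5aza-dC. With the mean of probes Nhp2 was 0.204 in the latter. When 1 array was left out, the ranges that crossed 0 were, for 5aza-dC minus mock, Nhp2 (-0.151 to 0.0109) and Tsr1 (-0.0074 to 0.322), for recovery minus mock, Polr1d (-0.0015 to 0.0615), Nhp2 (-0.161 to 0.0047) and Tsr1 (-0.127 to 0.183), and for recovery minus 5aza-dC, Polr1c (-0.0172 to 0.0271), Npm1 (-0.0236 to 0.142), Nhp2 (-0.0679 to 0.047) and Ppan (-0.0104 to 0.201). Low signal over background limits Tsr1 and Nolc1. No paired analysis was possible because the labels give 1 sample per group and the arrays behind a column carry no numbers that link groups.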
